A study of Saccharomyces cerevisiae with 6 samples.

Results

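RNA polymerase I (Pol I) signal along the ribosomal DNA (rDNA) of wild-type budding yeast (WT, Saccharomyces cerevisiae) was compared between the spacers and the rRNA genes of the same transcript. The members were the 2 WT libraries of a series of 6, and within them all 6858 positions of the transcribed rDNA, 1504 in the 4 spacers and 5354 in the 3 rRNA genes, assigned by the region given for each position in the deposited table. The other 4 libraries, from cells lacking CDC73 or PAF1, were not used. By the labels' protocols, the WT cells grew at 30 °C and were filtered, broken while frozen and used to immunoprecipitate Pol I, and a linker with a molecular identifier was joined to the RNA 3' ends for native elongating transcript sequencing (NET-seq), a method that maps polymerases by the ends of their RNA. The sources used here do not give the strain background, the tag or antibody, or whether the 2 libraries came from separate cultures, so the spread between them may be technical.

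Pol I makes a single long precursor that is cut and trimmed into the 18S, 5.8S and 25S rRNAs of the ribosome. Its spacers, external at the 5' and 3' ends (the 5' ETS and 3' ETS) and internal between the rRNAs (ITS1 before 5.8S, ITS2 after it), are removed and degraded, so their RNA is short-lived, while mature rRNA is the most abundant RNA of the cell. NET-seq signal is high where polymerases are dense or dwell. Nascent and mature RNA were not told apart in the deposited table, and the part of mature rRNA in the signal of the rRNA genes was not tested.

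The rDNA copy of the table lies on the minus strand of chromosome XII of build R64, from 467569 (position 1) down to 460712 (position 6858). The 5' ETS covers 466870 to 467569, 18S 465070 to 466869, ITS1 464709 to 465069, 5.8S 464551 to 464708, ITS2 464319 to 464550, 25S 460923 to 464318 and the 3' ETS 460712 to 460922. All 7 ends are those of the RefSeq genes ETS1-2, RDN18-2, ITS1-2, RDN58-2, ITS2-2, RDN25-2 and ETS2-2. The deposited signal is a read count scaled to a library sum of 1000000, and 1 read was worth 2.08 in replicate 1 and 4.43 in replicate 2. The libraries held 480708 and 226202 reads, and a position had a median of 41 and 20 reads.

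The spacers had 4 stretches with 3 or more pause sites no more than 60 nt apart. A pause site is a position whose signal exceeded the mean + 3 SD of its window, the 50 nt on either side, in both libraries. The stretches are shown, from 9 nt before the first site to 9 nt after the last, as RNA, 5' to 3', in lower case with the bases of the sites in capitals, since most of the highest spacer signals lie in the first pair. They are the minus strand of chrXII:467374-467475, chrXII:467022-467050, chrXII:464851-464962 and chrXII:464425-464464, read from the base column of the deposited table.
5' ETS 95 to 196: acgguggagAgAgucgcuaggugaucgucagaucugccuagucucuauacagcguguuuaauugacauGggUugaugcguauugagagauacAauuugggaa
5' ETS 520 to 548: agcuuuuugAacagagAgcAuuuccggca
ITS1 2608 to 2719: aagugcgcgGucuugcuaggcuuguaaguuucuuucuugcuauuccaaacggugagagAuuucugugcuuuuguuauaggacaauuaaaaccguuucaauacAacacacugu
ITS2 3106 to 3145: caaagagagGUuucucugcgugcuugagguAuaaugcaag
The first stretch is 14.6% of the length of the 5' ETS and held 30.4% and 28.6% of its signal. The second is 4.14% of that length and held 18.5% and 16.9%. The ITS1 stretch (31.0% of its length) held 37.5% and 36.9% and the ITS2 stretch (17.2%) 22.4% and 19.6%, shares closer to their lengths. The stretches were cut around sites chosen for high signal, so a share above the length is partly fixed by that choice. The sites alone held 10.2% and 9.31% of the region's signal in the first stretch and 6.27% and 5.98% in the second. They held 11.3% and 9.62% in ITS1 and 9.37% and 8.96% in ITS2.

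Per nucleotide, the spacers carried less WT signal than the rRNA genes in both libraries. The mean signal of a spacer position was 86.5 in replicate 1 and 77.4 in replicate 2, against 163 and 165 for an rRNA position. The ratio of spacers to rRNA was 0.532 and 0.469, or 0.50 ± 0.0446 (SD, n = 2). The difference in each library was larger than the spread between them, but 2 libraries cannot give an exact two-sided sign-flip permutation p below 0.5, which is the value obtained. All positions of a library share its depth and its scaling, and no test over positions was made. The spacers held 13% of the reads in replicate 1 (95% Wilson interval 12.9 to 13.1%) and 11.6% in replicate 2 (11.5 to 11.8%), on 21.9% of the length. The intervals cover counting error only, and the libraries differed by more than that.

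The spacers were not alike. The 5' ETS stood apart, with a mean signal per nucleotide of 145 and 124, which is 0.894 and 0.749 of the rRNA mean. ITS1 had 35.5 and 37.4, ITS2 39.7 and 42.8, and the 3' ETS 29.4 and 30.5. These last 3 spacers together stood at 0.216 and 0.225 of the rRNA mean, and the 5' ETS alone held 78.3% and 74.4% of all spacer signal. Without the 5' ETS the ratio of spacers to rRNA was 0.220. Among the rRNA genes, 18S (164 and 166) and 25S (164 and 167) overlapped between the libraries, and 5.8S was lower at 112 and 116. From high to low, the order was 25S and 18S, which did not separate, then the 5' ETS and 5.8S, whose ranges touched neither each other nor 18S, then ITS2, ITS1 and the 3' ETS, with no overlap among the last 3.

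The means hid how low most spacer positions were. The median spacer position had a signal of 25 and 22.1, or 12 and 5 reads, and the median rRNA position 104 and 106, or 50 and 24 reads. The ratio of medians was 0.240 and 0.208, a lower value than the ratio of means. Of the spacer positions, 52.7% and 54.3% lay below the 10th percentile of the rRNA positions, and 18.4% and 17.5% lay above their median. The tail went the other way in the 5' ETS only: 3.0% and 1.71% of its positions exceeded the 99th percentile of the rRNA positions, and none in ITS1, ITS2 or the 3' ETS did in either library. Of the 69 highest of the 6858 positions in replicate 1, 19 were in spacers, all of them in the 5' ETS. Of the 69 highest of replicate 2, 12 were, again all in the 5' ETS. These were 1.26% and 0.798% of the spacer positions, against 0.934% and 1.06% of the rRNA positions. The order of the classes thus changed between the libraries. The 19 of replicate 1 had a median signal of 1270.3 there and 1062 in replicate 2, and the 12 of replicate 2 had 1376 there and 1764 in replicate 1.

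**Figure D1:**
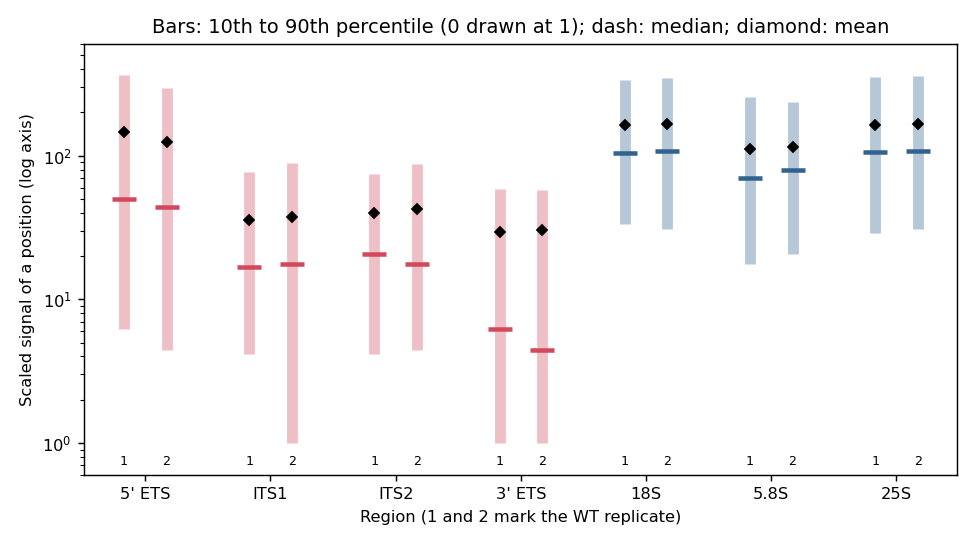
Signal of single positions in each region and WT library on a log axis, with bars from the 10th to the 90th percentile (0 is drawn at 1), a dash at the median and a diamond at the mean. The means of the 5' ETS reach 145 and 124, close to those of the rRNA genes, while its medians stay at 50 and 44.3, and the other 3 spacers are low by both measures.

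Signal was spread more unevenly in the spacers. As the unevenness that both libraries share, the square root of their covariance over the product of their means, spacers had 2.30 and rRNA 1.22, a difference of 1.09. With counting error subtracted within each library, the difference was 1.20 in replicate 1 and 1.03 in replicate 2. Of the spacer positions, 5.98% and 6.78% held 50% of the spacer signal, against 16.9% and 17.1% of the rRNA positions. The gap was smaller on a local scale, with each position divided by the mean of itself and the 50 nt on either side. Shared unevenness was then 1.58 in spacers and 1.08 in rRNA, a difference of 0.494. A high position raises the mean it is divided by, and how much of the fall lay in the levels of whole stretches was not tested. On that local scale every spacer (1.57 in the 5' ETS, 1.44 in ITS1, 1.46 in ITS2 and 1.89 in the 3' ETS) lay above every rRNA gene (1.06 in 18S, 1.20 in 5.8S and 1.08 in 25S). The profiles were shared by the libraries, where Spearman's rho over positions was 0.941 for the 5' ETS, 0.940 for 18S and 0.947 for 25S. It was 0.851 in ITS1, 0.803 in ITS2 and 0.809 in the 3' ETS, where a median position had 8, 10 and 3 reads in replicate 1 and 4, 4 and 1 in replicate 2. These correlations are across positions, which are not replicates.

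Along the transcript, the 5' ETS began low, rose to 2 summits and fell again before 18S. Its first 50 nt had a mean signal of 20.4 and 21.3, and its first 10 positions held no read in either library. The third bin of 50 nt reached 387 and 301, the bin from 501 to 550 reached 469 and 328, and the last 50 nt had 46.4 and 52.4. The first and last bins were low in both libraries, and both summits were higher in replicate 1 than in replicate 2. Of 14 bins of 50 nt in the 5' ETS, 3 lay above the median rRNA bin (142) and 3 below the lowest rRNA bin (61.7, positions 1401 to 1450 of 18S). Of 15 full bins in the other spacers, 13 lay below that lowest rRNA bin. In the other spacers the lowest bins lay away from the rRNA before them. ITS1 began at 34.1 and 45.1 in its first 50 nt, kept to between 31.2 and 51.9 in replicate 1 up to position 2800, and fell to 14.9 and 14.7 in the next 50 nt and to 7.19 and 7.64 in its last 11. ITS2 went from 69.6 and 81.9 in its first 50 nt down to 15.5 and 15.9 at positions 3170 to 3219, and rose again to 38.1 and 40.5 in its last 32. The 3' ETS dropped most, from 92.2 and 95 in its first 50 nt to 13.7 and 13.5 in the next. At positions 6748 to 6797 it was at 5.54 and 7.44, or a few reads per position. The highest bin of all was in 18S, at positions 2001 to 2050, with a mean of 493.

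**Figure D2:**
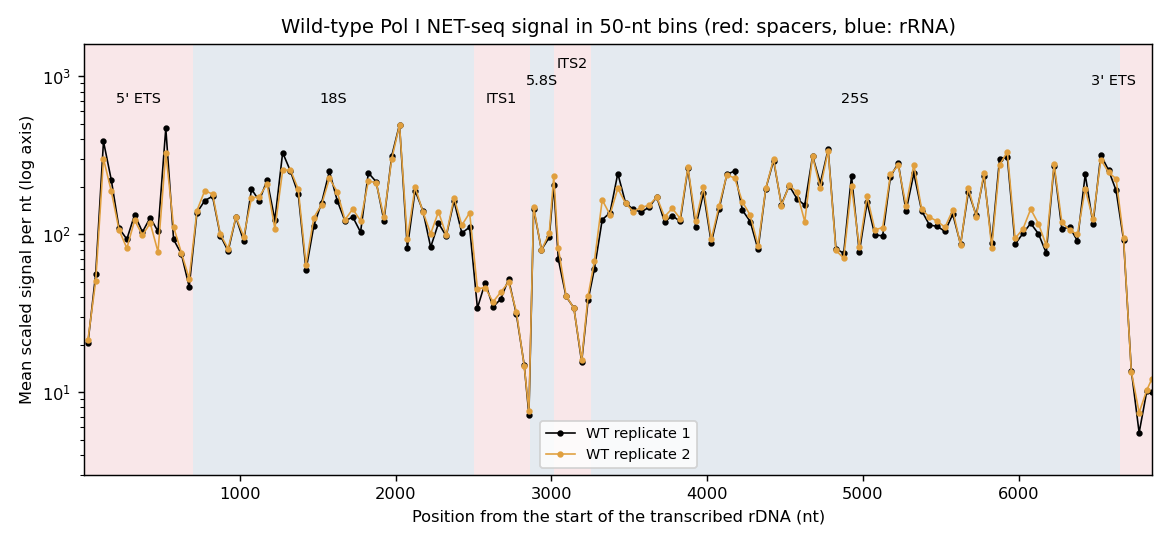
Mean signal in bins of 50 nt along the transcribed rDNA in both WT libraries, on a log axis, with spacers shaded red and rRNA genes blue. The 5' ETS has 2 summits of 387 and 469 in replicate 1, and ITS1, ITS2 and the 3' ETS fall to full bins of 14.8, 15.7 and 6.49 (means of both libraries).

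The signal stepped at the borders of the regions, and an rRNA lay above the spacer beside it at all 6 borders when 50 nt were taken. In the 50 nt on either side of the border, 5.8S had 11.2 and 11.9 times the signal of the end of ITS1. 18S had 2.95 and 2.69 times that of the end of the 5' ETS, and 25S 2.10 and 2.19 times that of the end of ITS2. With 20 nt on either side the step into 18S was larger, at 9.44 and 10.7 times, and the last 20 nt of the 5' ETS had a mean signal of 11.6 and 11.3. Leaving an rRNA, the last 50 nt of 18S, 5.8S and 25S had 3.25 and 3.02, 1.52 and 1.44, and 2.01 and 2.29 times the signal of the first 50 nt of the next spacer. With 20 nt, no step was seen between 5.8S and ITS2 (1.11 and 0.974 times).

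The first few nucleotides of a spacer behind a mature 3' end were unlike the rest of it. The first 10 nt of ITS2 had a mean signal of 203 and 258, and the rest of ITS2 32.3 and 33.1. Those 10 nt, 4.31% of ITS2, held 22.0% and 26% of its signal. In the 3' ETS the first 10 nt had 132 and 142 against 24.2 and 25 in the rest, and held 21.4% and 22.0% of its signal. ITS1 showed the same in a smaller degree, with 79.8 and 131 against 34.3 and 34.7, and here the libraries differed. In the 3' ETS there was a second group of high positions, with signals of 546 and 770.1 at position 6662, 15 nt past the end of 25S, and of 400 and 412 at position 6666. Those positions were chosen after their values were seen.

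At each mature 3' end itself, 3 neighbouring positions were listed at 0 in both libraries, between positions of high signal. The sequences around the ends (12 nt on either side of the last nucleotide of the rRNA) are given with the positions at 0 in capitals, from chrXII:465058-465082, chrXII:464539-464563 and chrXII:460911-460935, minus strand.
18S 3' end: ggaaggaucauUAAagaaauuuaau
5.8S 3' end: uugagcgucauUUCcuucucaaaca
25S 3' end: uugucugauuugUUUuuuauuucuu
For 18S these were positions 2499 to 2501, for 5.8S 3018 to 3020 and for 25S 6647 to 6649. Next to them, position 2498 had 316 and 215 reads, position 3021 had 185 and 94, and position 6646 had 589 and 305. Whether reads at these ends were removed before deposit is not given by the sources used here. Of all 6858 positions, 63 were at 0 in both libraries. The 1504 spacer positions held 57 of them, with 32 in the 3' ETS, where a median position had 3 and 1 reads. The 5354 rRNA positions held 6, of which 5 belonged to these 3 runs. With all positions within 10 nt of a mature 3' end left out, the ratio of spacers to rRNA was 0.493.

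**Figure D3:**
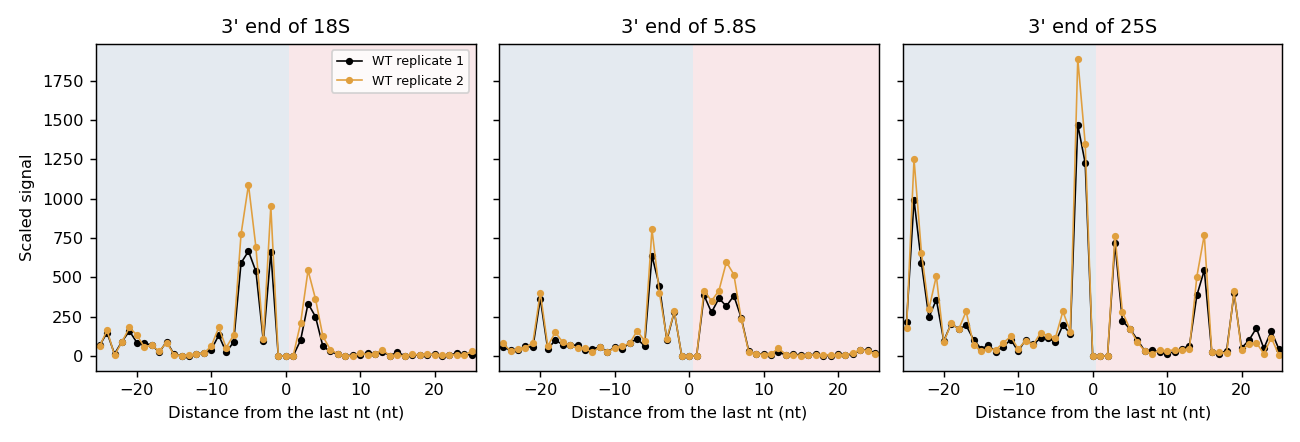
Scaled signal from 25 nt before to 25 nt after the last nucleotide of 18S, 5.8S and 25S in both WT libraries, with the rRNA side shaded blue and the spacer side red. Runs of 3 positions at 0 sit at each end, and signal is high on both sides of them before it falls in the spacer.

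Local peaks were then compared. By the rule of mean + 3 SD of the surrounding nucleotides, 130 of the 6858 positions (1.9%) were pause sites in both libraries. Spacers had 24 of them, 1.6 per 100 nt, and rRNA 106, 1.98 per 100 nt, both close to that background share. The last position inside the rule was 3858 in 25S, at 3.02 SD above the mean in both libraries, and the first outside was 2266 in 18S, at 3.16 and 2.998 SD. Of the spacer sites of replicate 1, 92.3% were found in replicate 2 and 66.7% the other way, and of the rRNA sites 86.9% and 80.9%. The 5' ETS had 14 sites (2.0 per 100 nt), ITS1 3 (0.831), ITS2 3 (1.29) and the 3' ETS 4 (1.90). The 18S gene had 32 (1.78 per 100 nt), 5.8S 3 (1.90) and 25S 71 (2.09), so the 5' ETS and 3' ETS were not below 18S.

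Which class had the denser peaks depended on the rule. Counting positions at or above 3 times the median of the same window in both libraries gave 705 positions (10.3%), 229 in spacers and 476 in rRNA, or 15.2 and 8.89 per 100 nt. With this rule the 5' ETS was densest, at 18.3 per 100 nt, followed by the 3' ETS at 13.7, ITS1 at 12.2, ITS2 at 12.1, 5.8S at 10.1, 25S at 9.36 and 18S at 7.89. These positions held 63.6% and 63.7% of the spacer signal and 32.8% and 32.8% of the rRNA signal. Not all of them rose above their surroundings: in spacers the lowest had 0.629 and 0.841 times the mean of its window. The fewest reads at a counted spacer position were 3 and 4. In rRNA the lowest height was 1.34 and 1.36 times that mean, and the fewest reads 63 and 34. Of the 3' ETS positions of replicate 1, 55.8% were found in replicate 2, and 76.3% the other way. The rule of mean + 3 SD asks more of a position where the window around it varies more, and the median ratio of SD to mean in those windows was 1.63 and 1.62 for spacers and 1.00 and 1.04 for rRNA. Both rules used these signals, so the counts are descriptions.

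The height of a site over its surroundings is part of the rule and gives no comparison of the classes, since the rule asks for more height where the window varies more. The median site rose 9.14 and 9.59 times above the mean of its window in spacers, and 5.61 and 5.83 times in rRNA. By the rule of 3 times the median the order was the other way, at 2.75 and 2.91 times in spacers and 3.06 and 3.08 in rRNA. The profile around the sites of the first rule carries this height with it: at 15 nt toward the 5' end the median signal was already 3.03% and 3.12% of the site's in spacers and 12% in both libraries in rRNA. At the next position toward the 3' end the median signal was 10.5% and 11.0% of the site's in spacers, and 31.3% and 31.9% in rRNA. One position toward the 5' end it was 20.7% and 21.8% against 35.1% and 35.1%. At 2 positions toward the 5' end the classes were close (30.5% and 27.8% against 28.4% and 26.9%), so that in the spacers this position exceeded its neighbour next to the site. How wide the sites were was not tested. Sites came in groups in both classes: 14 of the 24 spacer sites and 45 of the 106 rRNA sites had another site within 3 nt.

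**Figure D4:**
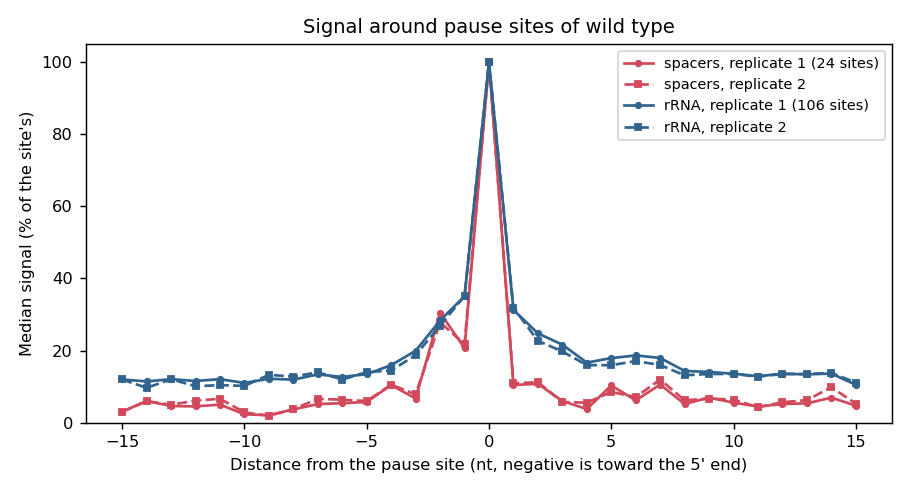
Median signal at each distance from a pause site, as a percentage of the signal at the site, for the 24 spacer and 106 rRNA sites in each WT library. The spacer curves lie below those of rRNA at most distances, out to 3.03% and 3.12% against 12% in both rRNA curves at 15 nt before the site, and have a shoulder 2 nt before it.

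All 10 of the highest spacer sites lay in the 5' ETS. Position 163 (chromosome XII 467407) had a signal of 2212 and 2301, and position 166, 3 nt on, 2345 and 1779. Position 106 (467464) had 2947 and 1562, the widest gap between the libraries among these 10, and its neighbour 104 had 1633 and 1168. In the second stretch, position 536 (467034) had 1895 and 2129, position 539 2205 and 1695 and position 529 2284 and 1354. The other 3 were position 187 with 1270.3 and 1253, position 437 with 1175 and 991 and position 366 with 1104 and 1022. Replicate 1 was 1.30 to 1.89 times replicate 2 at 104, 106, 166, 529 and 539, and 0.890 to 1.18 times at the other 5.

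The highest rRNA sites were of the same size or larger. Position 2019 in 18S (chromosome XII 465551) had a signal of 3369 and 3134, with position 2021 at 2149 and 2142, and position 1378 (466192) had 2378 and 2523. In 25S, position 4773 (462797) had 3255 and 2974, and the 2 positions before it were sites too, with 2093 and 2009 at 4771 and 2105 and 1996 at 4772. Positions 6545 (2172 and 2076), 6543 (2349 and 1624), 5200 (1883 and 2098) and 5860 (2001 and 1837) completed the list. Replicate 1 was 1.45 times replicate 2 at 6543 and 0.897 to 1.09 times at the other 9. Elsewhere the highest sites were lower: position 2970 in 5.8S had 1131 and 1062, position 2710 in ITS1 596 and 429, position 3116 in ITS2 379 and 434 and the site at chromosome XII 460831 in the 3' ETS 131 and 124. The last of these rested on 63 and 28 reads. Higher signals close to the mature 3' ends, such as 716 and 766 at position 6650 of the 3' ETS, did not pass the rule.

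The surroundings of these sites are shown with 12 nt on either side and the base of the site in capitals, as a sample of both classes. The first 3 are from spacers (chrXII:467192-467216, chrXII:467121-467145 and chrXII:460819-460843) and the last 6 from rRNA (chrXII:466180-466204, chrXII:465539-465563, chrXII:464588-464612, chrXII:462785-462809, chrXII:461698-461722 and chrXII:461013-461037), all on the minus strand.
5' ETS position 366: gccggucgcaagAcugugauucuuc
5' ETS position 437: ugaaacaccgggGuaucuguuuggu
3' ETS site at 460831: auuuuauuugucUuaagaauucuau
18S position 1378: uucguguacuggAuuuccaacgggg
18S position 2019: ugcuuaauugcgAuaacgaacgaga
5.8S position 2970: aucuuugaacgcAcauugcgccccu
25S position 4773: guuggacgugggUuagucgauccua
25S position 5860: ugucagguggggAguuuggcugggg
25S position 6545: uugcguggggauAaaucauuuguau
Several show a run of G just before the site, as at 437 in the 5' ETS and at 4773 and 5860 in 25S, while the 3' ETS site does not.

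The base listed for a position, called its own base here, and the bases around it went with signal in both classes. In NET-seq the position is meant to be the 3' end of the RNA, but the sources used here do not say which end of a read gave it. Relative signal was each position's signal over the mean of its window, here with the position itself included. It was averaged over the positions with a given base and set to 1 for the class. Positions with A had 1.40 and 1.38 in spacers and 1.14 and 1.15 in rRNA. Positions with U had 0.744 and 0.778 in spacers and 0.935 and 0.944 in rRNA, positions with C 0.867 and 0.849 against 1.04 and 1.03, and positions with G 0.960 and 0.947 against 0.900 and 0.886. A was the highest base in both classes, and C stood below 1 in spacers and above 1 in rRNA. By region, C was below 1 in 5.8S too (0.964 and 0.929) and on either side of 1 in ITS2 (1.01 and 0.989), while the other regions kept to the side of their class. For G in spacers the side of 1 changed with the scale: relative to the class mean, without the local division, it was 1.02.

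The base just before had the widest range of all 16 places from 10 before to 5 after, in both classes, 1.01 in spacers and 0.722 in rRNA. Positions that followed G had a relative signal of 1.66 and 1.61 in spacers and 1.40 and 1.39 in rRNA, and positions that followed A 0.626 and 0.622 against 0.677 and 0.672. At 2 places before, U was low in both, at 0.66 in spacers and 0.80 in rRNA as means of the libraries. Positions with A that followed G had 2.33 ± 0.0744 in spacers and 1.64 ± 0.0214 in rRNA (SD, n = 2), the highest of the 16 pairs of neighbouring bases in each class. Of the pause sites, 8 of 24 in spacers and 29 of 106 in rRNA were such positions, which made up 6.98% and 7.56% of all positions. A was the site's own base at 15 of 24 spacer sites (62.5%, against 28.4% of all spacer positions) and at 49 of 106 rRNA sites (46.2%, against 26.6%). By the rule of 3 times the median these shares were 39.7% and 35.5%. The sites were chosen by these signals, so the shares are a description.

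Over the 64 combinations of base and place, 29 lay on opposite sides of 1 in the classes in both libraries. A, G and U just after the position were among them, U only narrowly (0.996 and 0.998 in rRNA). Other values in the count were also close to 1, and how many unrelated classes would give was not tested. Positions followed by A had a relative signal of 0.752 and 0.729 in spacers and 1.08 and 1.09 in rRNA, and positions followed by G 1.14 and 1.13 against 0.912 and 0.927. Taken one by one, the regions kept this order but not always the side of 1, since 5.8S followed by A had 1.01 and 0.957. Followed by A, the 4 spacers had means of 0.744 (5' ETS), 0.880 (ITS1), 0.666 (ITS2) and 0.574 (3' ETS), all below 5.8S (0.985), 25S (1.08) and 18S (1.10). Followed by G, all 4 spacers were above 1 (1.03 to 1.19) and all 3 rRNA genes below (0.887 to 0.936). For an own base of A, too, the 4 spacers (1.25 to 1.68) lay above the 3 rRNA genes (1.12 to 1.19) on this local scale. Relative to the mean of the region, without the local division, they did not. On that scale A had 1.40 in the 5' ETS and 1.32 in ITS1, but 1.14 in ITS2 and 0.850 in the 3' ETS. The rRNA genes had 1.17 (18S), 1.14 (5.8S) and 1.10 (25S). These features were picked after their values were seen, the regions hold between 40 and 899 positions with A in that place, and the 3 smaller spacers have few reads per position.

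**Figure D5:**
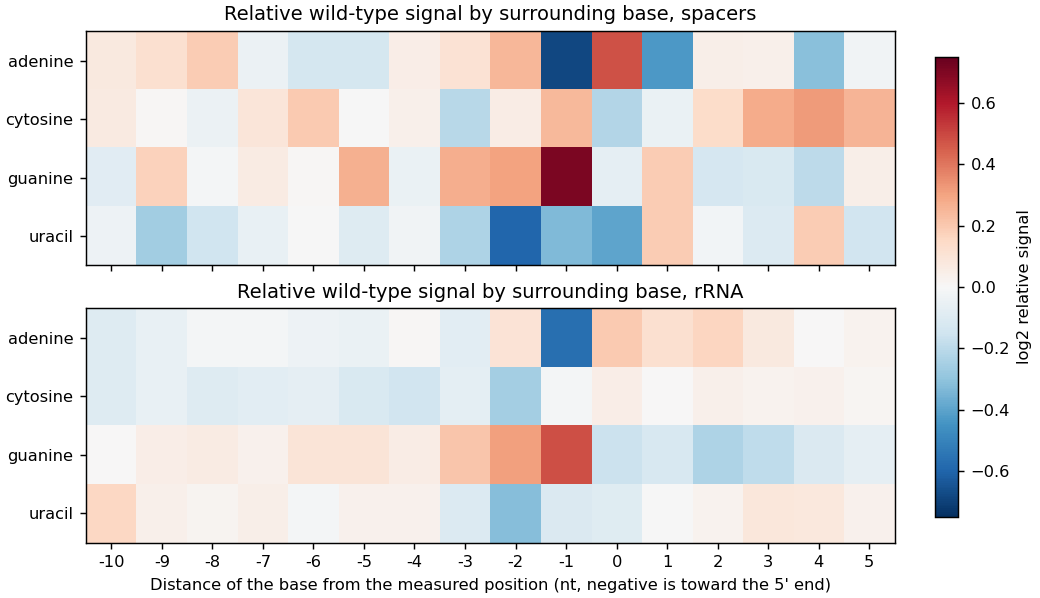
Relative signal, as log2 of the mean of both WT libraries, by the base found from 10 nt before to 5 nt after a position, for spacers above and rRNA below. Guanine just before the position is highest in both classes, and adenine just after it is low in spacers (0.740 as a ratio) and above 1 in rRNA (1.09).

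Base composition differed between the classes, and with the spacers pooled the difference in level was also present within each kind of position. Spacers were 38.6% G and C and 33.0% U, and rRNA genes 46.8% and 26.6%. Within each of the 16 pairs of own and preceding base, the mean signal was lower in spacers than in rRNA in both libraries. By own base alone, the 5' ETS was at 1.12 and 0.917 of rRNA for A, and below rRNA in both libraries for C, G and U. ITS1, ITS2 and the 3' ETS together were at 0.224 and 0.225 for A. The ratio of spacers to rRNA was nearest to 1 for A after G (0.905 and 0.726) and for A after C (0.885 and 0.750), and lowest for U after A (0.330 and 0.324) and U after U (0.338 and 0.317). With the spacer positions weighted to the rRNA's mix of the 16 pairs, an alternative chosen after seeing the data, the ratio of spacers to rRNA was 0.535, against 0.50 unweighted.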

How the data were processed

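NET-seq signal of 2 WT libraries was used. The members, rules and lists were chosen with earlier results of these data known. Per the submitters' processing notes the build was R64 and the tools were STAR 2.7.1a, cutadapt 3.4, bedtools 2.28.0, SAMtools 1.6, R 4.3.2, bcl2fastq 2.20.00 and FastQC 0.11.7. The sources used here do not give the use of molecular identifiers, the read end behind a position or the placing of reads that match many rDNA copies. The deposited signal is the authors' read number per position, scaled to a sum of 1000000 per library over all but the last 119 positions, which are on the same scale (found from the values). In units of the lowest value above 0, 100% of values were whole to within 0.001 read. With 1 genotype there are no groups to test, so no count test was run on those reads.

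Means, medians, percentiles, bins of 50 nt, unevenness, pause sites and base features were computed per library with Python 3.11.15, numpy 2.4.6, pandas 2.3.3, scipy 1.17.1, statsmodels 0.14.6 and matplotlib 3.10.9. Windows of 50 nt on either side were cut short at both ends of the transcript and ran across region borders. The pause caller was tested on simulated counts, with sites planted on a smoothed level and counting error only. Those windows are more even than the real ones, so the test does not show how the rule performs on these data. Sites named are the 10 highest of each class and the highest of each region. A count of 0 reads allows up to 3 reads, a signal of 6.25 in replicate 1 and 13.3 in replicate 2. Alternatives were leaving out a library, thinning to equal reads, a cap at the 99th percentile, medians, other windows and thresholds, and leaving out positions near mature ends or in the last 119 positions.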

Additional observations from a re-analysis of the deposited data

How the results depend on the processing

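The ratio of spacers to rRNA stayed below 1 in all alternatives run. It ranged from 0.469 to 0.532 with either library left out, and was 0.224 by medians and 0.220 without the 5' ETS. It moved by less than the spread between libraries with the libraries thinned to equal reads (0.499), capped at the 99th percentile (0.481), without the last 119 positions (0.538) and near mature 3' ends (0.493). Pause sites per 100 nt ranged from 1.73 to 2.39 in spacers and from 2.3 to 2.45 in rRNA with either library left out. They were 0.931 and 1.18 above the mean + 4 SD, and 15.2 and 8.89 at 3 times the window median. Spacers were the denser class by that last rule and without positions near mature 3' ends (1.90 against 1.86), and rRNA by the rule of the report and in the other 8 settings, though nearly level with spacers in a window of 51 nt (2.13 against 2.13). The difference in unevenness was above 0 throughout, from 1.03 to 1.20 with either library left out, 0.875 with the cap and 0.494 on the local scale. Relative to the class mean, the base values were 1.33 for A, 0.949 for C, 1.02 for G (which crossed 1) and 0.733 for U in spacers, and 1.13, 1.02, 0.936 and 0.927 in rRNA. With the cap, A was 1.37 and C 0.884 in spacers, and A 1.13 and C 1.04 in rRNA. The cause of these shifts was not tested. No paired analysis was possible because only 1 genotype was used, so that no libraries were matched by replicate number, and spacers and rRNA were compared within each library. Depth limits ITS1, ITS2 and the 3' ETS most: their median positions had 8, 10 and 3 reads in replicate 1 and 4, 4 and 1 in replicate 2.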

Other observations

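The WT libraries differed from each other mainly in the 5' ETS. Its share of the reads was 1.18 times higher in replicate 1 than in replicate 2, while for the other 6 regions this ratio lay between 0.927 and 0.990. Within the 5' ETS, the third bin of 50 nt (387 against 301) and the bins from 451 to 500 (104 against 77.3) and 501 to 550 (469 against 328) showed the widest gaps as a ratio, while bin 551 to 600 went the other way (92.6 against 111). The highest position of replicate 1 was 6411 in 25S (chromosome XII 461159), with 1630 reads and a signal of 3394, against 136 reads and 602 in replicate 2. It was not a pause site in both libraries, and it was singled out after its values were seen.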
